A study of Mus musculus with 6 samples.

Results

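Non-myelinating glia of the lower abdominal muscle were taken as a block of columns in the deposited count table. The columns of the table run sample by sample, and each complete pass through the 6 libraries forms 1 of 30 column groups. The glia are the 4th of these column groups, that is, column runs 19 to 24 of 180, restricted to barcodes with at least 500 unique molecular identifiers (UMIs, 1 per captured RNA molecule). Every barcode of the block met that limit, 502 in wild-type (WT) and 373 in Aromhum mice, out of 63647 barcodes in the table. The member with the fewest UMIs had 503. The block was labelled by 4 marker genes, Col20a1, Gpr37l1, Cadm4 and Cdh19. By mouse, they numbered 154, 182 and 166 (WT) and 114, 157 and 102 (Aromhum).

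Non-myelinating Schwann cells are the glia of peripheral nerve that do not wrap axons in myelin. Remak Schwann cells hold bundles of small sensory and autonomic axons in troughs of their membrane, and terminal (perisynaptic) Schwann cells cover the motor nerve endings at the neuromuscular junction. All of them descend from the neural crest, depend on the transcription factor Sox10 and on neuregulin signals received through ErbB3, and can turn into repair cells that secrete neurotrophic factors and cytokines after nerve injury.

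The study compared the lower abdominal muscle of male WT mice with that of their Aromhum littermates on the FVB/N background, at 9 to 10 weeks of age, with 3 mice in each group. Aromhum mice carry the human aromatase gene CYP19A1 with its own promoters. Aromatase converts androgens to estrogens, and the males develop scrotal hernia with fibrosis of this muscle. The transgene is present in every cell of the animal, so that no difference between the groups can be assigned to glia alone. Muscle was minced and digested with collagenase II and dispase, and the strained single-cell suspension was run on the 10x Genomics 3′ platform. Each mouse was 1 library. On each of 3 dates a WT mouse and an Aromhum littermate were processed, but the labels do not say which mice shared a date.

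Total UMIs in the members ranged from 541140 to 1270457 per mouse, within libraries of 64958237 to 111826460 UMIs. Of 63175 barcode sequences, 471 occurred in more than 1 library, and 9 members carried such a sequence. The table appears to hold a gene in a library only when about 20 or more of its barcodes have a UMI of that gene. Genes with UMIs in 1 to 19 barcodes numbered 1 to 147 per library, against 848 to 1290 genes with 20 to 39 barcodes, and 2362 of the 16494 genes were blank in at least 1 library. A blank gene is therefore not a measured absence. At least 3 markers of another cell type, each with at least 2 UMIs, were found in 154 members, most often fibroblast markers (108 members) or endothelial markers (37 members). These 154 are called mixed members here. They numbered 22, 30 and 28 in WT and 18, 39 and 17 in Aromhum mice. Free RNA and doublets were not modelled.

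Sequence upstream of the start site was available from RefSeq (GRCm38.p6) for 3 of the 4 marker genes, and is shown because the 4 genes label the block. The 250 bases before each start are printed 5′ to 3′ on the strand of the gene. Capitals mark any match to ACAAAG or ACAATG, core motifs of the Sox family of transcription factors, searched on both strands. The Col20a1 window is chr2:180986285-180986534 (plus strand), that of Cadm4 is chr7:24481773-24482022 (plus strand), and that of Gpr37l1 is chr1:135167682-135167931 (minus strand).
Col20a1: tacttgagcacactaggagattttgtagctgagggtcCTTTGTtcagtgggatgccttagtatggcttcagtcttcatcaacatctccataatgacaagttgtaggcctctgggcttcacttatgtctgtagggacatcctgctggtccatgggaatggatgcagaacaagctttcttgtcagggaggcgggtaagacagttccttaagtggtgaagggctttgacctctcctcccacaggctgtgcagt
Cadm4: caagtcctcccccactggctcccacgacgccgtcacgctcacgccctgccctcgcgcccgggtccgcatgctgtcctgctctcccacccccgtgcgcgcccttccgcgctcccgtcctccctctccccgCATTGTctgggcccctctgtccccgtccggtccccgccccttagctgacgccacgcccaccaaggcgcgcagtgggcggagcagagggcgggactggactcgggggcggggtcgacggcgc
Gpr37l1: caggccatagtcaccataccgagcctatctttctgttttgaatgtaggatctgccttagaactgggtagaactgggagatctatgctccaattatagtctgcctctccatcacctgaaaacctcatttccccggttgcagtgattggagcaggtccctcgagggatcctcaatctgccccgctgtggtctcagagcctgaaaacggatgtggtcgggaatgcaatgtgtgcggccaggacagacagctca

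The Col20a1 window held 1 match to ACAAAG on the opposite strand, 213 bases before the start, and the Cadm4 window 1 match to ACAATG on the opposite strand, 121 bases before the start. The Gpr37l1 window held neither. Either motif occurred in 25.2% of the 32851 windows of this length in the RefSeq table, so such matches are common. The motifs do not overlap each other.

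The 4 marker genes were high in the block in every mouse, as its label says. Levels are given as CPM, the UMIs of a gene per 1000000 UMIs of the summed members of a mouse. In this 3′ assay the CPM carry no term for gene length. Col20a1 (chr2:180986535-181018363, plus strand), a collagen gene, was at 698, 609 and 761 CPM in WT and 715, 755 and 917 CPM in Aromhum mice, with a mean of 742 ± 102 CPM (SD, n = 6). The highest non-glial column group had 24.1 CPM of it. Gpr37l1 (chr1:135160234-135167681, minus strand), a G protein-coupled receptor of glia, averaged 339 ± 77.7 CPM against at most 2.89 CPM in a non-glial group. Cadm4 (chr7:24482023-24504539, plus strand), which codes for the Schwann cell partner in the adhesion of glia to axons, averaged 606 ± 73.2 CPM against at most 41.7 CPM. Cdh19 (chr1:110888326-110977584, minus strand), a cadherin of the Schwann cell lineage, averaged 272 ± 41.8 CPM against at most 38.2 CPM. As the 4 genes label the block and the column groups look like clusters of the same cells, these contrasts are descriptions and carry no test.

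**Figure D1:**
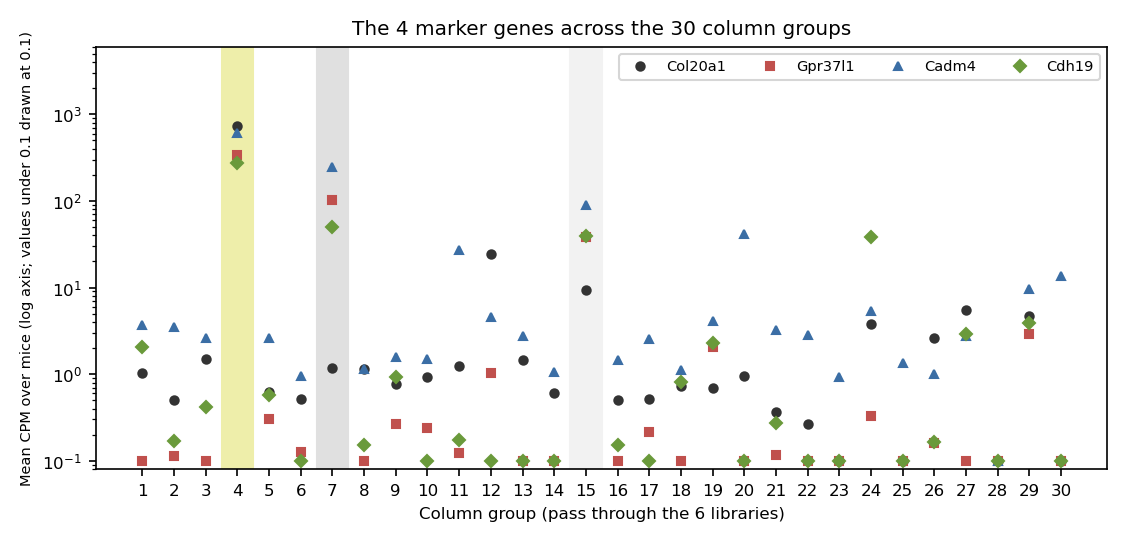
Mean CPM over mice (log axis) of the 4 marker genes in each of the 30 column groups, in the order of the table; values under 0.1 are drawn at 0.1. All 4 genes peak in column group 4 (yellow band), and Gpr37l1, Cadm4 and Cdh19 are also raised in the myelinating group 7 and in group 15 (grey bands). Col20a1 is at 1.16 CPM in group 7 and 9.37 CPM in group 15, below the 24.1 CPM of group 12.

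Seen cell by cell, the markers were in most members and nearly absent from endothelial cells. A UMI of Cadm4 was found in 79.3% of members, Cdh19 in 64.6%, Gpr37l1 in 59.8% and Col20a1 in 51.5%. After thinning to 1000 UMIs per cell, which 802 members allowed, the shares were 44.4%, 25.2%, 25.1% and 34.2%. In 2000 endothelial cells thinned likewise, the shares were 0.45%, 0.05%, 0.05% and 0.05%. Median depth before thinning was 3670 UMIs in members and 5283.5 UMIs in endothelial cells. Cadm4 was in the largest share of members at either depth.

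The lineage genes gave the same picture. Sox10, the transcription factor on which all Schwann cells depend, averaged 134 ± 25 CPM, against at most 1.55 CPM in a non-glial group. Foxd3, a neural crest factor, averaged 153 ± 34.9 CPM and Erbb3, the neuregulin receptor, 162 ± 16.9 CPM. Of 30 genes ranked by the ratio of the block to the highest non-glial group, Gpr37l1 led, followed by Sox10, Gm2115 and Vmn1r181. Among the first 20 were the cholinesterase gene Bche (456 ± 97.0 CPM), the kainate receptor subunit gene Grik2 (63.2 ± 10.1 CPM), and the potassium channel genes Kcna1 (458 ± 46.2 CPM) and Kcna6 (73.2 ± 13.4 CPM). Vmn1r181 was blank in 1 library. The ratios leave out the glial groups, among them the myelinating column group 7. There Sox10 averaged 130 ± 36.3 CPM, Foxd3 143 ± 24.9 CPM and Kcna1 820 ± 63.0 CPM. Erbb3 (49.3 ± 5.89 CPM), Bche (6.02 ± 4.60 CPM), Grik2 (5.86 ± 3.75 CPM) and Kcna6 (15.8 ± 6.98 CPM) were lower there than in the members.

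Myelin genes were low in the block. Column group 7 (1329 barcodes with at least 500 UMIs), in which the list of myelinating Schwann cell markers led, served as the nearest comparison. Ncmap, which codes for a protein of noncompact myelin, averaged 25.8 ± 15.7 CPM in the members and 907 ± 115 CPM in group 7. Pllp, a myelin proteolipid gene, was at 13.8 ± 7.88 CPM against 488 ± 89.7 CPM. Col20a1 was at 742 CPM in the members and 1.16 CPM in group 7, Ajap1 at 214 CPM and 0.171 CPM, and Unc80 at 186 CPM and 0.309 CPM. Ptn, which codes for the growth factor pleiotrophin, stood at 1376 ± 314 CPM against 12.6 ± 7.59 CPM. Ptprz1, a receptor of pleiotrophin, stood at 264 ± 32.9 CPM against 1.80 ± 2.47 CPM. At the other end, Spp1, Mt3, Grp and Ugt8a marked group 7, with Spp1 at 1675 ± 385 CPM there and 18.5 ± 16.9 CPM in the members. Hemoglobin genes also stood at that end, with SDs above their means over the 6 mice of group 7.

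Adhesion molecules known from non-myelinating Schwann cells were present in every mouse. Ncam1 averaged 387 ± 73.3 CPM against 14.8 ± 4.36 CPM in group 7, L1cam 174 ± 30.7 CPM against 1.95 CPM, and Chl1 423 ± 45.3 CPM against 10.7 ± 11.5 CPM. Cadm1 was at 431 ± 71.0 CPM, and Lgi4, a ligand secreted by Schwann cells, at 339 ± 52.6 CPM. Gfap, an intermediate filament of Remak cells, was blank in all 3 WT libraries and in Aromhum replicate 1, and had 33.1 CPM and 21.7 CPM in the other two Aromhum mice. Ngfr, the p75 neurotrophin receptor, was low, at 22.5 to 41.3 CPM in WT and 40.7 to 67.7 CPM in Aromhum mice. Mki67, a gene of dividing cells, had a UMI in 0.571% of members and in 1.40% of the deeper endothelial cells before thinning, and in 0.249% and 0.15% after it.

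The members fell apart by a small number of genes. Terminal Schwann cell genes (Ajap1 and Col20a1, counted as a sum) reached at least 2 UMIs without any Scn7a UMI in 244 members (27.9%). Scn7a, a sodium channel gene of non-myelinating Schwann cells, reached at least 2 UMIs without any UMI of those 2 genes in 240 members (27.4%). At least 2 UMIs of each side were found in 97 members (11.1%), and the other 294 (33.6%) were in none of these classes. Of the latter, 186 had exactly 1 UMI of the terminal genes or of Scn7a, whatever the other side held, and 108 had none of either. The division was made after the values had been seen, and it describes ranges of expression and not types. Median depth was 5069.5 UMIs in the terminal members, 2766.5 in the Scn7a members, 6309 in those with both and 2905 in the rest. Members with both therefore had the highest depth. The terminal members made up 23.4%, 26.9% and 34.3% of members in WT mice and 31.6%, 21.0% and 32.4% in Aromhum mice. Scn7a members made up 29.2%, 31.9% and 25.3% in WT and 23.7%, 24.2% and 29.4% in Aromhum mice, and the ranges of the genotypes overlapped for both.

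Genes that had not been used in the division also separated the terminal members from the Scn7a members. Bche was at 905 ± 52.8 CPM in the terminal members and 26.9 ± 22.2 CPM in the Scn7a members. Tinagl1, an extracellular matrix gene, was at 1455 ± 363 CPM and 38.3 ± 42.6 CPM, and Htra1, a secreted serine protease, at 1668 ± 369 CPM and 59.4 ± 30.2 CPM. Cspg4, the NG2 proteoglycan known from terminal Schwann cells, was at 176 ± 30.0 CPM and 39.2 ± 9.51 CPM. Apod, a lipid carrier, was at 3129 ± 1118 CPM and 266 ± 253 CPM, and Ptn at 2209 ± 373 CPM and 722 ± 231 CPM. Each of these genes was higher in the terminal members of 6 of 6 mice.

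The Scn7a members held a different set. Gfra3, a receptor for the neurotrophic factor artemin, was at 216 ± 132 CPM in them and 1.88 ± 3.17 CPM in the terminal members. Ngfr was at 113 ± 29.3 CPM and 7.24 ± 12.2 CPM, Gdnf at 156 ± 103 CPM and 22.2 ± 22.6 CPM, and Ntrk3, the receptor for neurotrophin-3, at 136 ± 37.1 CPM and 1.67 ± 3.07 CPM. Gatm, an enzyme of creatine synthesis, had a median of 3 UMIs per Scn7a member and 0 per terminal member. Hbegf, an EGF-family ligand, had a median of 2 UMIs against 0. Lineage genes were shared, with Cdh19 at 311 ± 77.1 CPM in terminal and 332 ± 103 CPM in Scn7a members, higher in the terminal members of 3 of 6 mice.

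Lyz2, which codes for lysozyme and is a marker of macrophages and neutrophils, was the sharpest of these genes. It had a UMI in 91.8% of terminal members, with a median of 45.5 UMIs, and in 2.92% of Scn7a members, with a median of 0. Across all members it was at 10168, 4903 and 7814 CPM in WT and 3602, 1999 and 5367 CPM in Aromhum mice. Thinned to 1000 UMIs, 37.8% of members and 1.25% of endothelial cells held it. Other macrophage genes did not accompany it. Ptprc was at 0.861 ± 0.950 CPM, Adgre1 at 0.501 ± 1.23 CPM, Csf1r at 4.19 ± 5.55 CPM, Cd68 at 7.83 ± 6.24 CPM and C1qa at 12.7 ± 23.6 CPM, and 3 members met the marker rule for macrophages. In group 7, Lyz2 was at 71.3 ± 160 CPM. Lyz1, a near-identical neighbor on chromosome 10, also had UMIs in the terminal members (133 ± 87.6 CPM), and reads may be divided between both genes.

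**Figure D2:**
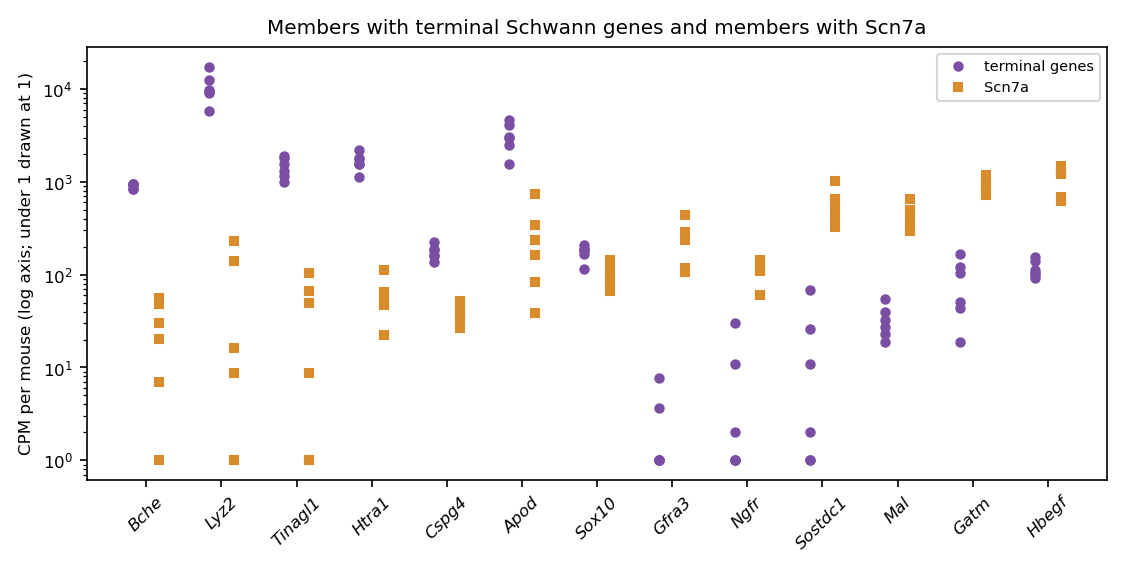
CPM per mouse (log axis, values under 1 drawn at 1) of 13 genes in the members with terminal Schwann cell genes (violet circles) and the members with Scn7a (orange squares), 6 mice each. Bche, Lyz2, Tinagl1, Htra1, Cspg4 and Apod are higher in the terminal members of every mouse, Gfra3, Ngfr, Sostdc1, Mal, Gatm and Hbegf in the Scn7a members, and Sox10 overlaps.

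Among secreted and lipid-handling products, Apoe, the lipid transport protein, was at 8240 ± 1817 CPM in the members and had a UMI in 97.1% of them, against 460 ± 351 CPM in group 7. Fabp7, a fatty acid binding protein of immature glia, was at 239 ± 46.2 CPM against 3.22 ± 1.81 CPM. Postn, a matrix protein, was at 1258 ± 202 CPM and Pdgfa at 577 ± 63.7 CPM. Of the receptors, Lpar1 for lysophosphatidic acid was at 424 ± 33.3 CPM, the GPCR Adgrg6 at 129 ± 17.5 CPM, and Ntrk2, the receptor of BDNF, at 312 ± 46.6 CPM. Ret, the signaling subunit that works with the GDNF receptors, was nearly absent, at 0 to 5.44 CPM. The stress-induced factor genes Jun (2130 ± 446 CPM) and Atf3 (1706 ± 340 CPM) were high in both genotypes. Both are induced in Schwann cells by nerve injury, and digestion of tissue is also known to induce them, and the part of digestion was not tested.

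Non-myelinating glia had a smaller mean share of the barcodes in Aromhum mice, in which endothelial barcodes were also fewer. Members were 1.52%, 1.68% and 2.10% of barcodes with at least 500 UMIs in WT and 0.949%, 1.14% and 1.14% in Aromhum mice. The means were 1.77 ± 0.301% and 1.08 ± 0.109% (SD, n = 3), the ranges did not overlap, and the 2-sided exact permutation test gave p = 0.1, the lowest that 3 against 3 mice allow. For every 100 endothelial barcodes there were 4.51 ± 0.0692 members in WT and 5.38 ± 1.34 in Aromhum mice (exact permutation p = 0.4). Endothelial barcodes themselves numbered 3443 of 10164, 4081 of 10816 and 3620 of 7905 in WT and 2374 of 12010, 2271 of 13763 and 2300 of 8979 in Aromhum mice, so that the ratio rests on a smaller denominator in Aromhum mice. Within the limits that the study set on genes, UMIs and mitochondrial UMIs, 32, 6 and 40 WT members and 24, 35 and 33 Aromhum members were left, and the shares were 0.956 ± 0.638% and 0.933 ± 0.464% (exact permutation p = 1). A share depends on every other cell type in the suspension, so fewer glia and more of other cells cannot be told apart.

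Of both glial column groups together, members were 42.2%, 35.5% and 31.6% in WT and 44.0%, 55.5% and 39.4% in Aromhum mice (means 36.4 ± 5.35% and 46.3 ± 8.29%, exact permutation p = 0.2). The myelinating group 7 made up 3.23 ± 1.24% of barcodes in WT and 1.29 ± 0.423% in Aromhum mice (exact permutation p = 0.1), without overlap. The share of members among glia overlapped between genotypes.

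**Figure D3:**
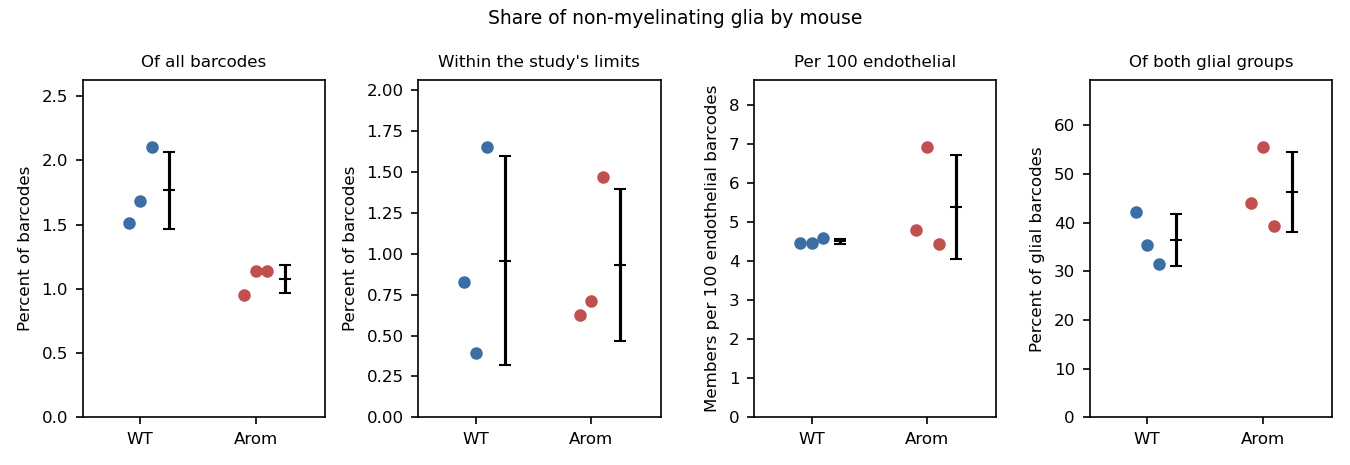
Share of non-myelinating glia in each mouse (points; 3 WT in blue, 3 Aromhum, labelled Arom, in red), with the mean and SD in black, as a percent of all barcodes, the same within the study's limits, per 100 endothelial barcodes, and as a percent of both glial column groups. Only in the first panel are the genotypes apart.

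The genotypes overlapped in the depth and quality of members. Median UMIs per member were 3420.5, 3676.5 and 5125.5 in WT and 2923, 2593 and 3840 in Aromhum mice (exact permutation p = 0.3). The median mitochondrial share was 5.79%, 8.12% and 5.69% in WT and 5.64%, 6.03% and 5.49% in Aromhum mice (exact permutation p = 0.5). WT replicate 2 stood out, and only 6 of its 182 members were within the study's limits.

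Few genes passed the test between the genotypes within the glia. UMIs were summed per mouse and tested with edgeR's quasi-likelihood test, with the mouse as the replicate and Benjamini-Hochberg adjustment. Of 7202 genes tested, 7 passed an adjusted p of 0.05 (0.0972%), 3 higher (0.0417%) and 4 lower (0.0555%) in Aromhum mice. At an unadjusted p under 0.05, 661 genes (9.18%) were past the threshold, 382 (5.3%) higher and 279 (3.87%) lower. The 3 genes that rose were CYP19A1, C4b and Ccl7, and the 4 that fell were Asb5, Slitrk1, Slitrk3 and Egfem1. CYP19A1 is the transgene, which WT mice do not carry, so its call follows from the design.

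C4b (chr17:34728380-34743882, minus strand; GRCm38, as all coordinates here) codes for complement component 4, which tags targets for the complement cascade. It was at 381, 235 and 280 CPM in WT and 649, 811 and 734 CPM in Aromhum mice, with no overlap. The log2 fold change was 1.28 (SE 0.18, edgeR adjusted p = 0.0322). UMIs were spread over many members, 78 to 87 per WT mouse and 61 to 101 per Aromhum mouse, with the top 3 members holding 12.9% to 22.7% of a mouse's UMIs. In fits without 1 mouse, the log2 fold change was 1.14 to 1.48. The adjusted p was 0.0718 without Aromhum replicate 1, 0.0736 without Aromhum replicate 2, 0.117 without WT replicate 2 and 0.349 without WT replicate 3, and stayed under 0.05 without either of the other two mice. Without mixed members the log2 fold change was 1.20 (SE 0.14, edgeR adjusted p = 0.000158). In all other barcodes of the same mice it was 3.17 (SE 0.89). When the members were held to the study's limits, or to at most 5% mitochondrial UMIs, no gene passed, with fewer members and genes in the fit, while the log2 fold change of C4b was 1.69 and 1.5. Reads of the near-identical copy C4a could be counted in either gene.

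Ccl7 (chr11:82045712-82047525, plus strand), a chemokine that attracts monocytes, was at 48.9, 81.8 and 79.5 CPM in WT and 207, 621 and 348 CPM in Aromhum mice. The log2 fold change was 2.45 (SE 0.36, edgeR adjusted p = 0.043). In each mouse 3 members held 55.4% to 81.8% of its UMIs, and the highest non-glial level, 3898 CPM, was in a fibroblast column group. After thinning, 5.99% of members and 4.35% of endothelial cells had a UMI of it. Without mixed members the log2 fold change was 1.62 (SE 0.33, edgeR adjusted p = 0.026), and with limma voom the adjusted p was 0.0836. Within the study's limits and at most 5% mitochondrial UMIs the log2 fold change was 4.30 and 2.65 (edgeR adjusted p = 0.218 and 0.166). In fits without 1 mouse, the log2 fold change was 1.94 to 2.76. The edgeR adjusted p was 0.171 without WT replicate 1, 0.148 without WT replicate 2 and 0.349 without WT replicate 3, and stayed under 0.05 without any 1 Aromhum mouse.

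Asb5 (chr8:54529580-54587842, plus strand), a gene of muscle satellite cells, was at 72.7, 88.0 and 105 CPM in WT and 12.9, 19.6 and 14.5 CPM in Aromhum mice. The log2 fold change was -2.50 (SE 0.25, edgeR adjusted p = 0.00298). It had UMIs in 3, 11 and 10 members in WT and 2, 3 and 1 members in Aromhum mice. Its highest level by far, 1473 CPM, was in the column group of muscle stem cells. The summed list of 5 muscle stem cell markers, Asb5 included, was in the members at 96.5, 188 and 238 CPM in WT and 55.4, 72.2 and 54.4 CPM in Aromhum mice. Pax7, the defining marker of that list, was at 3.18 ± 2.38 CPM over the 6 mice. Without mixed members, 10 of which carried muscle stem cell markers, the log2 fold change was -2.27 (SE 0.65) with an edgeR adjusted p of 0.171. In all other barcodes Asb5 had a log2 fold change of -1.41 (SE 0.21).

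Slitrk1 (chr14:108908800-108914158, minus strand), Slitrk3 (chr3:73047265-73057803, minus strand) and Egfem1 (chr3:29082023-29691209, plus strand) were blank in all 3 Aromhum libraries, and no fold is given for them. Slitrk genes code for membrane proteins that organize synapses. Slitrk1 was at 42.3, 46.6 and 41.7 CPM in WT members, Slitrk3 at 31.7, 35.2 and 31.5 CPM, and Egfem1 at 26.4, 26.4 and 18.1 CPM. At the pooled WT shares of members and of other barcodes with a UMI, the Aromhum libraries would have held 29.3, 38.7 and 25.1 barcodes with Slitrk1, 22.1, 29.5 and 19.2 with Slitrk3, and 20.7, 27.2 and 17.7 with Egfem1. The apparent edge of the filter is 20 barcodes, and part or all of these differences cannot be told apart from it. Across the table, 51 genes were blank in all Aromhum and no WT libraries, and 191 in all WT and no Aromhum libraries. When testing was restricted to the 14132 genes with UMIs in all 6 libraries, only Asb5 passed, and the edgeR adjusted p was 0.0818 for C4b and 0.0934 for Ccl7.

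The next 3 genes in order of p did not pass. Adamtsl1, a matrix glycoprotein, had a log2 fold change of 1.79 (SE 0.31, edgeR adjusted p = 0.123), with 25.1, 30.8 and 28.3 CPM in WT and 75.8, 152 and 67.0 CPM in Aromhum mice. Bpgm was at 241, 165 and 216 CPM against 116, 99.3 and 111 CPM, a log2 fold change of -0.95 (SE 0.17) with the same adjusted p. Fam129b was at 21.1, 36.9 and 28.3 CPM against 70.2, 69.2 and 68.8 CPM, a log2 fold change of 1.22 (SE 0.22) with the same adjusted p. The genotypes did not overlap in any of these 3 genes, as was so for 14.3% of all genes tested (7.94% with higher and 6.37% with lower values in Aromhum mice).

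**Figure D4:**
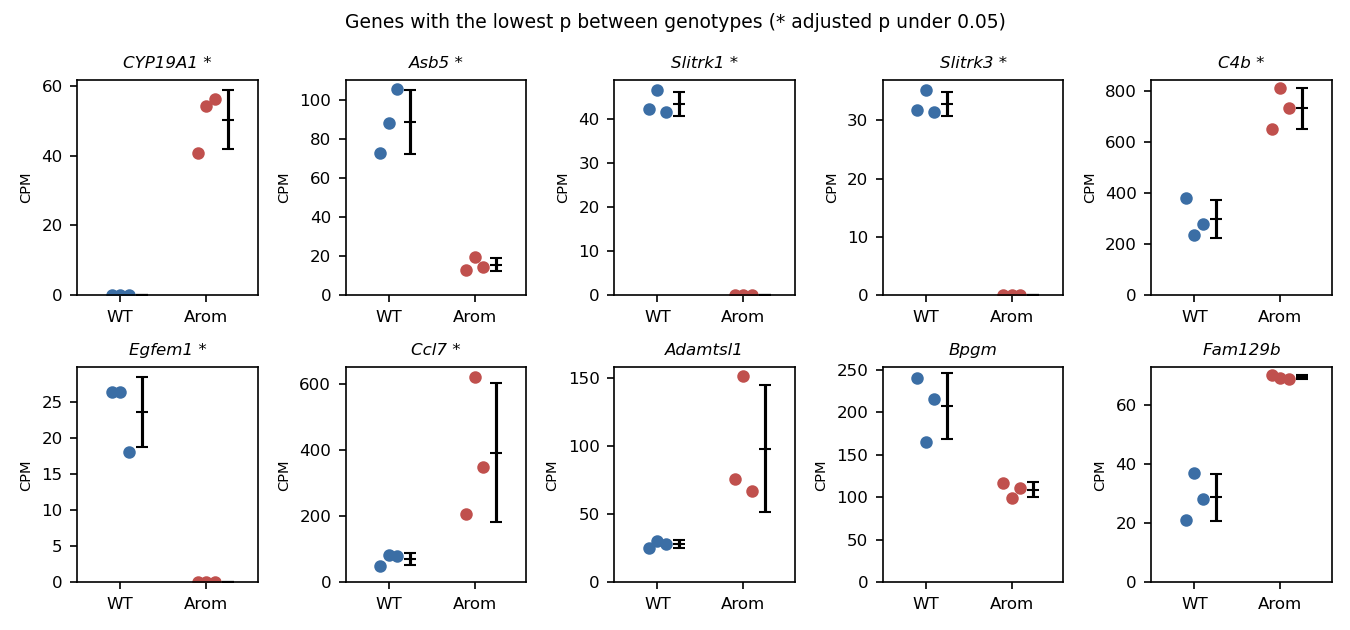
CPM in the summed members of each mouse (points; WT in blue, Aromhum, labelled Arom, in red; mean and SD in black) for the 10 genes with the lowest p, an asterisk marking an adjusted p under 0.05. The genotypes do not overlap in any panel; Slitrk1, Slitrk3 and Egfem1 are blank in the Aromhum libraries and CYP19A1 in the WT libraries.

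The transgene was read in the glia of every Aromhum mouse. CYP19A1 had 22, 36 and 31 UMIs in 20, 30 and 22 members of the Aromhum mice, that is 40.7, 54.2 and 56.2 CPM, and none in WT mice (edgeR adjusted p = 0.00298). This was 17.5%, 19.1% and 21.6% of the Aromhum members, and 0.971%, 4.90% and 7.22% after thinning. At 50.3 ± 8.43 CPM (n = 3), the members had the highest mean of the 30 column groups. The myelinating group 7 followed with 39.5 ± 10.9 CPM, group 15 with 32.3 ± 6.26 CPM, and 2 groups of smooth muscle cells and pericytes with 23.7 ± 5.05 CPM and 23.5 ± 7.55 CPM. The ranges of the mice overlapped between the members and group 7 and between groups 7 and 15, while every mouse had more in the members than the highest mouse of group 15. In all other barcodes of the Aromhum mice the level was 7.30 CPM on average.

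Receptors for the products of aromatase were scarce in the members. Esr1, the estrogen receptor alpha gene, was at 13.2, 13.2 and 18.1 CPM in WT and 11.1, 28.6 and 10.9 CPM in Aromhum mice, against 227 CPM in the highest fibroblast group. After thinning, 1.5% of members and 0.25% of endothelial cells had a UMI of it. Gper1, a membrane estrogen receptor gene, averaged 0.787 ± 1.93 CPM. Esr1, Gper1 and the estrogen target Pgr were too low to be tested. Nr3c1, the glucocorticoid receptor gene, was at 146 ± 13.2 CPM with a log2 fold change of 0.04 (SE 0.15). Of 18 genes in the list of steroid receptors and estrogen targets, 8 were tested. The only one that passed was CYP19A1, the transgene itself, whose call follows from the design. Igfbp4, Igfbp5 and Nppc were higher at an unadjusted p under 0.05, against 5.3% of all genes. The mice differed widely in these 3, with Nppc at 565, 102 and 9.06 CPM in the Aromhum mice. In Aromhum replicate 1, 3 members held 99.7% of the Nppc UMIs.

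Of the identity genes of the cells, none passed. The 4 marker genes had log2 fold changes from -0.19 to 0.19, and none had an unadjusted p under 0.05. In the Schwann lineage list, 9 of 10 genes were tested and 2 were lower at an unadjusted p under 0.05, against 3.87% of all genes. Foxd3 was at 157, 213 and 170 CPM in WT and 124, 129 and 125 CPM in Aromhum mice (log2 -0.54, SE 0.16, edgeR adjusted p = 0.326), and Fabp7 at 260, 300 and 256 CPM against 235, 162 and 221 CPM (log2 -0.43, SE 0.16, edgeR adjusted p = 0.441). Lyz2 had a log2 fold change of -1.08 (edgeR unadjusted p = 0.0089), and its genotypes overlapped.

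Genes of axon and synapse adhesion had more values below 0 than above. Of 31 genes in the list of neuregulin and axon-glia adhesion, 21 were tested, none passed, none was higher and 3 were lower at an unadjusted p under 0.05, and the median log2 fold change was -0.12, with 7 genes above 0. Cadm1 was at 509, 480 and 471 CPM in WT and 338, 350 and 437 CPM in Aromhum mice, without overlap (log2 -0.39, SE 0.13, edgeR adjusted p = 0.422). Nlgn3, which codes for a neuroligin, was at 47.6, 44.9 and 40.1 CPM against 33.3, 33.1 and 29.0 CPM, without overlap (log2 -0.48, SE 0.20, edgeR adjusted p = 0.491). The median over all 7202 genes was -0.003, close to 0, and 3.87% of all genes were lower at that threshold, against 3 of 21 here.

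Genes of the repair program had a median well above that of all genes. Of 14 genes in the list of repair Schwann cells, 9 were tested, none passed, 5 were higher at an unadjusted p under 0.05 against 5.3% of all genes, and the median log2 fold change was 0.84. Gap43, a growth-associated protein, was at 14.5, 21.1 and 17.3 CPM in WT and 46.2, 78.2 and 43.5 CPM in Aromhum mice, without overlap (log2 1.64, SE 0.29, edgeR adjusted p = 0.123). Without mixed members its log2 fold change was 1.79 (SE 0.32, edgeR adjusted p = 0.0115). Lif, a cytokine that acts through gp130, was at 9.25, 8.80 and 9.45 CPM against 14.8, 30.1 and 30.8 CPM (log2 1.44, SE 0.35). These levels rest on 7, 10 and 12 UMIs in WT and 8, 20 and 17 UMIs in Aromhum mice. Gdnf, the glial neurotrophic factor, was at 33.0, 60.7 and 26.8 CPM against 94.2, 113 and 41.7 CPM, with overlap (log2 1.03, SE 0.38). Runx2 and Ngfr were the others, at log2 0.96 (SE 0.37) and 0.84 (SE 0.29). Runx2 had 10, 15 and 9 UMIs in WT and 13, 17 and 8 UMIs in Aromhum mice. Jun and Atf3, the injury-induced factors, had log2 fold changes of -0.26 (SE 0.21) and -0.07 (SE 0.20). Fibroblast markers had a median log2 fold change of 1.20 in the same members, and like Gap43, Gdnf and Ngfr they were highest in Aromhum replicate 2. Their part in these values was not tested. The median of the repair list was 0.64 both without mixed members (7 genes tested, 3 higher at an unadjusted p under 0.05) and without Aromhum replicate 2 (9 tested, 2 higher). Of all genes in these fits, 519 of 5554 and 523 of 7621 were past that threshold, in either direction. Artn, Bdnf and Clcf1 were too low to be tested, and Shh and Olig1 were not in the table.

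Complement and cytokine genes were the list with the most passing members. The lists were chosen with earlier results of these data known. Of 33 genes, 25 were tested, and C4b and Ccl7 passed as higher, as did 0.0417% of all genes. At an unadjusted p under 0.05, 13 were higher and none lower, against 5.3% and 3.87% of all genes. The median log2 fold change was 0.85. Serpina3n, a protease inhibitor of reactive glia, was at 309, 207 and 325 CPM in WT and 434, 587 and 435 CPM in Aromhum mice, without overlap (log2 0.78, SE 0.19, edgeR adjusted p = 0.257). Nfkbiz, a regulator of NF-kappaB targets, was at 85.9, 77.4 and 74.8 CPM against 152, 206 and 123 CPM (log2 1.01, SE 0.20, edgeR adjusted p = 0.18). C3, the central complement component, was at 66.1, 7.04 and 26.8 CPM against 305, 396 and 48.9 CPM, with overlap (log2 3.01, SE 0.72, edgeR adjusted p = 0.248). Without mixed members C3 had an edgeR adjusted p of 0.000465. Before their removal, 3 members held 80.6%, 60.1% and 37.0% of the C3 UMIs of the Aromhum mice, and 62.5% to 85.3% in WT mice. The pentraxin gene Ptx3 was at 23.8, 42.2 and 55.9 CPM against 255, 510 and 81.5 CPM (log2 2.74, SE 0.54, edgeR adjusted p = 0.18). In the same members the median log2 fold change of the fibroblast markers was 1.20. Like C4b, Ccl7, Serpina3n, Nfkbiz, C3 and Ptx3, the fibroblast markers were highest in Aromhum replicate 2. The part of fibroblast RNA in the values of this list was not tested.

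Interstitial matrix genes all lay above 0 without passing the test. Of 31 genes, 29 were tested and all 29 had a log2 fold change above 0, from 0.07 to 2.86, with a median of 0.73. None passed, and 18 were higher at an unadjusted p under 0.05, against 5.3% of all genes. Col1a1, the main chain of type I collagen, was at 529, 607 and 390 CPM in WT and 806, 2422 and 585 CPM in Aromhum mice (log2 1.31, SE 0.44, edgeR adjusted p = 0.422). Col5a3 was at 197, 201 and 205 CPM against 273, 334 and 308 CPM, without overlap (log2 0.58, SE 0.13, edgeR adjusted p = 0.248). Tnc, which codes for tenascin-C, was at 34.4, 19.4 and 22.0 CPM against 73.9, 93.3 and 45.3 CPM (log2 1.53, SE 0.30, edgeR adjusted p = 0.18), and Fn1 at 64.8, 77.4 and 60.6 CPM against 211, 641 and 105 CPM (log2 2.24, SE 0.53, edgeR adjusted p = 0.248). Sparc, also a product of the glia themselves, was at 5437 to 6051 CPM in WT and 6189 to 7311 CPM in Aromhum mice (log2 0.22, SE 0.14).

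Fibroblast markers were also higher in 2 of the 3 Aromhum mice. The summed list of 7 fibroblast markers was at 4270, 6417 and 5049 CPM in the WT members and 7030, 12544 and 4280 CPM in the Aromhum members. All 7 markers had a log2 fold change above 0 (median 1.20), and Aromhum replicate 2, with 29 members holding fibroblast markers, was the highest. Aromhum replicate 3 was within the WT range of that sum. Its C4b (734 CPM), Ccl7 (348 CPM), Serpina3n (435 CPM) and Col5a3 (308 CPM) were above every WT mouse. Its Col1a1 and C3 were within the WT range, and 1 member held 111 of its 192 Ccl7 UMIs. Outside the glia, Col1a1 reached 10252 CPM in a group with tenocyte markers, Tnc 592 CPM in a group of smooth muscle cells and Fn1 1861 CPM in the macrophage group. Without Aromhum replicate 2, the median log2 fold change of the matrix list was 0.43, with 12 genes higher at an unadjusted p under 0.05. In that fit 523 of all 7621 genes tested were past that threshold, in either direction. Without the mixed members, 24 matrix genes could be tested, 22 had a log2 fold change above 0, and the median was 0.60. Of these genes 7 passed, among them Tnc, Col6a1, Fn1 and Col5a3, against 34 of all 5554 genes tested without mixed members. Fibroblast markers were part of the rule that removed those members. The part of fibroblast RNA in these values was not tested.

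Basement membrane genes, which Schwann cells express themselves, had a median nearer to 0. Of 27 genes, 24 were tested, none passed and 6 were higher at an unadjusted p under 0.05, against 5.3% of all genes (median log2 0.17). Hspg2, the perlecan gene, was at 201, 241 and 208 CPM in WT and 281, 432 and 310 CPM in Aromhum mice, without overlap (log2 0.64, SE 0.18, edgeR adjusted p = 0.325), and Itgb8, an integrin subunit with at most 12.5 CPM in a non-glial group, at 116, 108 and 93.7 CPM against 140, 162 and 154 CPM (log2 0.51, SE 0.15). Dag1, the dystroglycan gene, was at 859 ± 92.2 CPM in WT and 861 ± 195 CPM in Aromhum mice.

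In the list of lipid carriers and fatty acid genes, 22 of 24 were tested, 5 were higher and 2 lower at an unadjusted p under 0.05 (median log2 0.25). The shares of all genes past that threshold, 5.3% higher and 3.87% lower, also stand beside the counts of the next lists. Fasn, fatty acid synthase, was at 23.8, 24.6 and 19.7 CPM in WT and 48.0, 61.7 and 34.4 CPM in Aromhum mice, without overlap (log2 1.08, SE 0.26, edgeR adjusted p = 0.248). The growth factor binder Igfbp7, of the list of 44 secreted factors (28 tested, 7 higher, none lower at an unadjusted p under 0.05), was at 1016, 1078 and 1100 CPM against 1706, 1637 and 1765 CPM (log2 0.66, SE 0.12, edgeR adjusted p = 0.123). Its genotypes did not overlap and its replicates lay close together. Of the 18 myelin genes, 15 were tested, none passed, 2 were higher and 1 lower at an unadjusted p under 0.05, and the median log2 fold change was -0.34. The genes above 0 were Gldn (log2 1.25, SE 0.36) and Dhh (log2 0.67, SE 0.25), and the others of the 15 lay below 0. Without Aromhum replicate 2 the median was -0.047 with 6 of 15 genes above 0, and without Aromhum replicate 1 it was -0.60. Without mixed members it was -0.20, with 3 of 10 tested genes above 0.

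**Figure D5:**
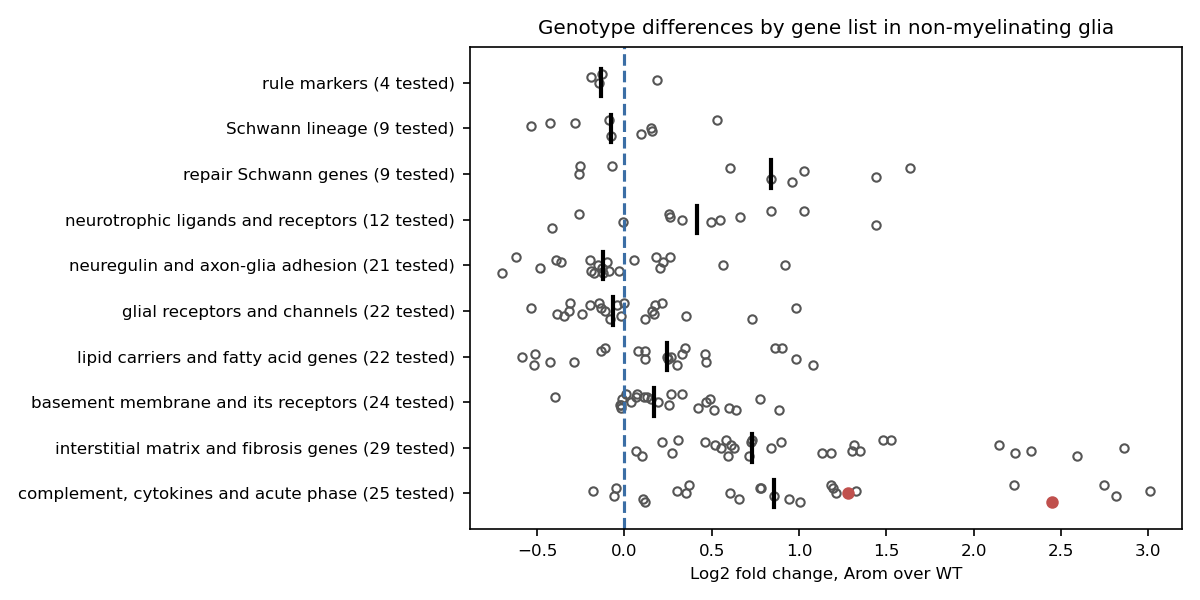
Log2 fold change (Aromhum over WT) of each tested gene in 10 gene lists, as open circles, with C4b and Ccl7, which passed an adjusted p of 0.05, filled in red. Black bars are the list medians, and the dashed line is the median of all genes tested; the repair, interstitial matrix and complement lists have medians of 0.84, 0.73 and 0.85.

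The myelinating group 7 gave more calls than the members. There, 126 of 6162 genes passed (2.04%), 112 higher (1.82%) and 14 lower (0.227%) in Aromhum mice. The summed fibroblast markers also differed there, at 5497, 2670 and 2438 CPM in WT and 10780, 10524 and 7625 CPM in Aromhum mice, without overlap, and the macrophage markers were at 12.7 to 24.7 CPM in 5 mice and 558 CPM in Aromhum replicate 1. Their part in the calls of group 7 and in its interactions was not tested. The difference of the genotype effects was tested as an interaction, with mouse as a term. Of 7670 genes, edgeR called 0 at an adjusted p of 0.05, with 578 (7.54%) at an unadjusted p under 0.05, and limma voom called 0, with 568. The lowest adjusted p was 0.0657, shared by 6 genes, so that in this fit the effects in both kinds of glia were not shown to differ for any gene. Leaving out 1 mouse gave 0 to 38 genes, the most without WT replicate 1, and no filter on low counts gave 128.

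The gene with the lowest interaction p was Apoe. In the members it was at 10695, 7094 and 9242 CPM in WT and 8645, 5414 and 8351 CPM in Aromhum mice (log2 -0.29, SE 0.21), while in group 7 the log2 fold change was 2.10 (SE 0.31, edgeR adjusted p = 0.00772). The interaction was -2.41 (SE 0.34). Postn had a log2 fold change of 0.31 (SE 0.14) in the members and 1.88 (SE 0.30) in group 7, and Cd44 0.28 (SE 0.15) and 1.53 (SE 0.19). In these 3 genes the members had the higher level in WT mice, and the smaller absolute log2 fold change. C4b, at 1.28 (SE 0.18) in the members and 3.82 (SE 0.95) in group 7, had an interaction adjusted p of 0.577.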

How the data were processed

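The authors deposited 1 table of raw UMI counts (16494 genes, 63647 barcodes), made with Cell Ranger 3.0.2 on mm10 with human CYP19A1 added. The filter on genes is not given in the sources used here. All barcodes of column runs 19 to 24 were used. Members, lists and named genes were chosen with earlier results of these data known. Counts were summed per mouse. The genotype fit used edgeR 4.0.16 (R 4.3.3; TMM, filterByExpr, quasi-likelihood test, Benjamini-Hochberg, threshold 0.05), with DESeq2 1.42.0 and limma 3.58.1 as alternatives, and was tested on simulated data. Shares were compared by exact permutation tests (numpy 2.4.6) over 3 against 3 mice, which cannot go below p = 0.1. No doublet caller was run. Results for some genes are not reported here. Named genes were those called, the next in order of p up to 10, members of the lists and the extremes of the ratios to other column groups (ranked at 50 CPM or more, CPM + 1 for group 7). Gene coordinates are from GENCODE vM21 (GRCm38). Per the study's methods a WT mouse and an Aromhum littermate were processed on each of 3 dates, but no source used here ties the replicate numbers to dates, so the reported fit has no block. In WT and Aromhum mice with the same number, deviations from the group means correlated at 0.077, 0.055 and 0.10.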

Additional observations from a re-analysis of the deposited data

Results flagged for a closer look

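Glial signal lay outside both column groups compared. Column group 15, with 282 barcodes (34, 60 and 84 in WT and 26, 39 and 39 in Aromhum mice), had 91.4 CPM of Sox10, against 134 CPM in the non-myelinating glia and at most 1.55 CPM in any non-glial group. Col20a1 was at 9.37 CPM there. The same barcodes held 13483 CPM of the fibroblast gene Dcn. By mean log2(CPM + 1), the fibroblast marker list stood at 8.70 there, 8.56 in the members and 8.55 in group 7. The perineurial (nerve sheath) list stood at 8.17, 4.10 and 3.71 in the same order, and the myelinating list at 7.91, 5.36 and 9.38. The genotypes were not compared in group 15, and whether its barcodes are single cells was not tested.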

How the results depend on the processing

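Of the 7 genes that passed between genotypes with edgeR, limma voom called 6 and RLE size factors or at least 1000 UMIs per member 7. DESeq2 called 23 (380 at an unadjusted p under 0.05), no filter on low counts 96, and members without markers of another cell type 34 (23 higher, 11 lower). The study's limits gave 0 of 2016 genes (159 at an unadjusted p under 0.05 with edgeR) and at most 5% mitochondrial UMIs 0 of 3791 (273), both with fewer members and genes. Only genes with UMIs in all 6 libraries, chosen after seeing the data, gave 1. Leaving out 1 mouse gave 3 to 105 genes, 3 without WT replicate 2 or WT replicate 3 and 105 without Aromhum replicate 3; the cause was not tested.

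With the replicate block 44 genes passed (34 higher, 10 lower), including the 7. Also called were Adamtsl1, Bpgm and Fam129b (adjusted p = 0.00672, 0.0164 and 0.0321) and, among other genes named above, Gap43, Lyz2, Col6a1, Fn1, Tnc, Nppc, Ptx3, Nfkbiz and Igfbp7. Pairs of littermates shared a date, but the numbers are not said to mark the dates, 2 of 3 same-number correlations were below 0.1 (0.077, 0.055 and 0.10), and every mouse correlated best with its own number. For shares, depth and mitochondrial percent the block gave p = 0.25 by exact permutation, the lowest that 3 pairs allow.

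The interaction with the myelinating group went from 0 genes to 128 without a filter on low counts (30 higher, 98 lower), and leaving out 1 mouse gave 0 to 38, the highest without WT replicate 1. The difference in share (Aromhum minus WT, -0.69 percentage points) was -0.82 to -0.52 without 1 mouse, and 0.877 as members per 100 endothelial barcodes, an alternative chosen after seeing the data. Its share of both glial groups differed by 5.27 to 13.3 percentage points without 1 mouse. Over the 4 marker genes, the mean percent of members with a UMI was 32.2 after thinning and 63.8 without it.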
